A study of Bos taurus with 28 samples.

Results

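Liver transcripts of triacylglycerol storage and lipid droplets were measured in dairy cows whose intake was cut until ketosis developed, and set against those of healthy cows. The gene set held 10 genes: the lipid droplet coat genes PLIN2 and PLIN3, the droplet fusion gene CIDEC, the synthesis genes GPAM, LPIN1, DGAT1 and DGAT2, and the lipase genes PNPLA2, LIPE and MGLL. They were chosen by gene symbol from the array's annotation, and PLIN2 was the gene the set was built around. The annotation named probes for 8 of the 10 genes, on 10 probes, and none for LPIN1 or CIDEC. Enough values for a test were present for 7 genes on 8 probes, out of 6958 genes tested in all. DGAT2 had a value on both of its arrays in only 4 ketotic cows and is therefore given array by array.

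The animals were 14 multiparous Holstein cows, judged healthy on day 4 after calving and then assigned at random. The 7 healthy cows were fed ad libitum early after calving. The 7 ketotic cows received 50% of their earlier intake until they showed clinical ketosis. The design text starts this restriction on day 5 and ends it by day 14, whereas the sample labels start it on day 4. Ketosis and feed restriction came together in every ketotic cow, so their effects cannot be told apart, and no source used here gives the day on which the liver was sampled. Liver total RNA of each cow was hybridised against a common RNA pool of bovine tissues on 2 cDNA arrays with the dyes exchanged. Both arrays of a cow were counted as 1 sample, which gives n = 7 per group. Each level below is a log2 ratio of liver over that pool, with the array's median set to 0, so a level of one gene cannot be set against that of another. In whole liver, fewer cells of a type and less RNA per cell cannot be told apart.

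Triacylglycerol is made from glycerol 3-phosphate by stepwise addition of fatty acids and is stored in lipid droplets, whose surface carries perilipin coat proteins. Lipases release the fatty acids again, one after the other. In the dairy cow after calving, fatty acids from adipose tissue reach the liver in large amounts, where they are oxidised, turned into ketone bodies, or re-esterified and stored. PLIN2 protein coats the droplets of hepatocytes and is a widely used marker of liver fat.

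Which dye was the numerator is not stated and was taken from the labelled dyes and from marker genes. After arrays with liver in Cy3 were turned, hepatocyte markers exceeded skeletal muscle markers on 28 of 28 arrays, by at least 3.13 on the log2 scale, so the direction liver over pool is likely. One animal stood apart from the rest. Across genes, healthy cow 7 correlated with the rest of its group at a median r of 0.467, against at least 0.893 for every other cow. The mean level of its hepatocyte markers was 3.47, below the 5.54 to 7.15 of the other healthy cows and the 5.81 to 6.83 of the ketotic cows. Here and for the marker lists below, a cow's mean was taken over the markers with a value in that cow. Results that turn on this animal are given with and without it. The share of spots with no usable ratio was 9.19% to 16.6% per healthy cow and 12.2% to 25.0% per ketotic cow.

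None of the 7 tested genes passed the test between the groups, at a Benjamini-Hochberg adjusted p of 0.05 over all genes tested (limma's moderated test). Over all genes, 13.4% passed, most of them lower in ketosis (865 genes lower and 64 higher). The differences of the 7 genes, ketotic minus healthy, ran from -0.19 for PLIN2 to 0.53 for LIPE on the log2 scale, with a median of 0.19. Over all genes the median difference was -0.18, and 67.2% of the differences were negative. Positive differences were found for 6 of the 7 genes with all cows and for 3 of the 6 that could be tested without healthy cow 7, when LIPE had too few healthy cows. The groups overlapped for each of the 7 genes, and the share of all genes with overlapping groups is not given here. The median standard error was 0.309 for the 7 genes and 0.224 for all genes, so that the data bound each change rather than show that there was none.

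**Figure D1:**
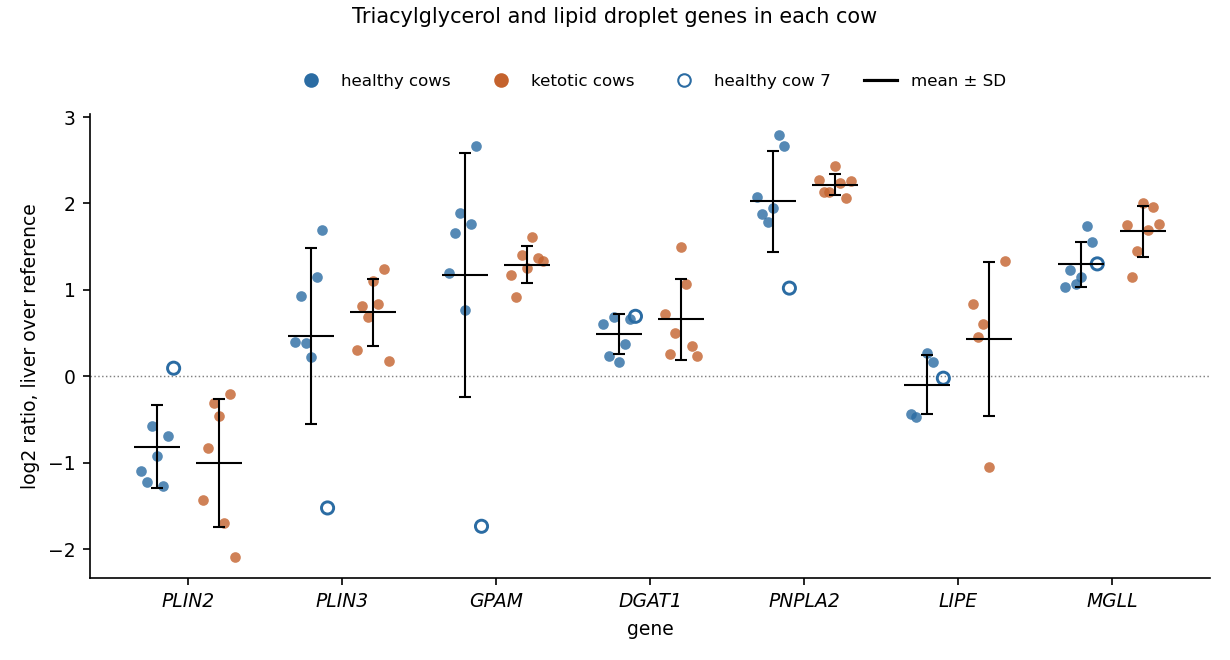
Level of each tested gene in every cow (vertical axis, log2 ratio of liver over the reference pool; horizontal axis, gene), with healthy cows in blue, ketotic cows in orange, healthy cow 7 as an open circle, and bars for the group mean ± SD. The groups overlap for all 7 genes, and healthy cow 7 is the lowest cow for PLIN3, GPAM and PNPLA2 and the highest for PLIN2.

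PLIN2 showed no difference beyond the spread between cows. In the healthy cows its log2 ratio ran from -1.26 to 0.09 with a median of -0.93. In the ketotic cows it ran from -2.09 to -0.21 with a median of -0.83. The ketotic range was the wider one: cows 1, 5 and 7 lay at -1.43, -1.69 and -2.09, below every healthy cow, while cows 2, 3, 4 and 6 lay at -0.83 to -0.21, within the healthy range. The highest value of all was that of healthy cow 7. Group means were -0.81 ± 0.476 in healthy cows and -1.0 ± 0.739 in ketotic cows (SD, n = 7 each). The difference was -0.19 (SE 0.309, limma adjusted p = 0.740), and 4 of 7 ketotic cows lay below the healthy mean. Its 95% interval, -0.85 to 0.46, leaves room for a level up to 1.80-fold lower or 1.38-fold higher. Leaving out healthy cow 7 gave a difference of -0.04 (limma adjusted p = 0.945). The other 6 healthy cows reached no higher than -0.58. Against them, 3 ketotic cows lay below every healthy cow, 3 lay above every one, and 4 of 7 lay above the healthy mean.

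PLIN2 was read by 2 probes on each array. Probe 14609 had a usable ratio on 54 of 56 spots and probe 23449 on 55 of 56. Probe 14609 gave a difference of -0.26 (SE 0.295, limma adjusted p = 0.635) and lacked a value in ketotic cow 5, which therefore entered with probe 23449 alone. Probe 23449 gave a difference of -0.03 (SE 0.353, limma adjusted p = 0.973). The probes ranked the cows much alike: over 13 cows Pearson's r was 0.806 (permutation p = 0.00084) and Spearman's rho 0.764 (permutation p = 0.0033). Without the 2 cows farthest from the median of probe 14609, r was 0.730. Within the groups r was 0.855 over 7 healthy cows and 0.851 over 6 ketotic cows (exact permutation p = 0.0212 and 0.0194). The ranks within groups were less certain, with rho 0.679 and 0.714 (exact permutation p = 0.110 and 0.136). Of the 6 ketotic cows with values from both probes, cows 1 and 7 were the lowest on each. Single arrays scattered more: probe 14609 read -3.14 in ketotic cow 7 with liver in Cy5, its lowest PLIN2 value, and -0.78 with liver in Cy3. On probe 23449 ketotic cow 1 read -1.46 in Cy3 and -0.92 in Cy5. Both lay within the healthy ranges of that probe, -1.87 to -0.34 in Cy3 and -1.52 to 0.42 in Cy5.

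**Figure D2:**
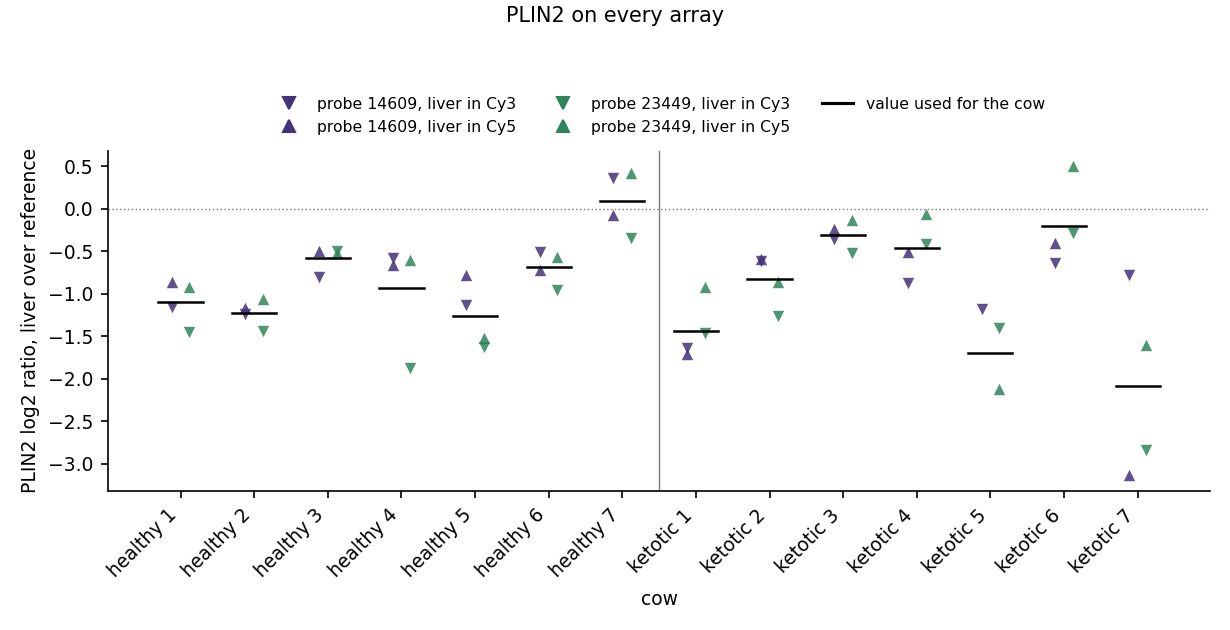
PLIN2 on every array (vertical axis, log2 ratio of liver over the reference pool; horizontal axis, cow), with probes by colour, the liver dye by the direction of the triangle, and a black line for the cow's value. By the cow's value, ketotic cows 1, 5 and 7 lie below the other ketotic cows, and ketotic cow 7 holds the lowest reading, at -3.14.

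PLIN2 was also set against the share of unusable spots. Ketotic cows 5 and 7 had the largest shares of spots without a ratio, 25.0% and 18.4%. Across 14 cows the correlation of PLIN2 with this share was r = -0.559 (permutation p = 0.0361, adjusted over 7 genes 0.126) and rho = -0.473 (permutation p = 0.0915, adjusted 0.183). Without those 2 cows r was -0.200, so the relation rests on them. Without healthy cow 7, r was -0.482 and rho -0.341 (permutation p = 0.0926 and 0.253, adjusted over 7 genes 0.206 and 0.355). Within groups it was -0.165 over the healthy cows and -0.732 over the ketotic cows (exact permutation p = 0.723 and 0.0472; adjusted over 6 genes 0.723 and 0.283). With the share of unusable spots as a covariate the PLIN2 difference between groups was 0.24 (SE 0.320), of the opposite sign and within its error.

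PLIN3 encodes a perilipin that moves from the cytosol to newly formed droplets. Its log2 ratio ran from -1.52 to 1.69 with a median of 0.39 in the healthy cows, and from 0.18 to 1.24 with a median of 0.82 in the ketotic cows. All ketotic cows lay within the healthy range, and healthy cow 7 was the single cow below 0. The difference was 0.28 (SE 0.375, limma adjusted p = 0.682) with a 95% interval of -0.52 to 1.07. Without healthy cow 7 it was -0.06 (limma adjusted p = 0.901), so its sign rests on that cow.

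GPAM encodes the mitochondrial glycerol-3-phosphate acyltransferase, which adds the first fatty acid. The healthy cows ran from -1.73 to 2.66 with a median of 1.66, and the ketotic cows from 0.92 to 1.61 with a median of 1.33. Healthy cow 7 held the lowest value, and the next healthy cow lay at 0.77. The ketotic cows were close together (SD 0.214, n = 7) and the healthy cows were not (SD 1.41, n = 7), and the healthy SD was still 0.644 without cow 7. The difference was 0.12 (SE 0.484, limma adjusted p = 0.906), with a 95% interval of -0.91 to 1.15. Without healthy cow 7 it was -0.37 (95% interval -0.88 to 0.15, limma adjusted p = 0.309), and all 7 ketotic cows then lay below the healthy mean.

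The final step, from diacylglycerol to triacylglycerol, is made by DGAT1 and DGAT2. DGAT1 ran from 0.16 to 0.69 with a median of 0.61 in healthy cows and from 0.23 to 1.49 with a median of 0.50 in ketotic cows. Ketotic cows 1, 4 and 5 lay above every healthy cow and the other 4 lay among them. The DGAT1 difference was 0.17 (SE 0.200, 95% interval -0.25 to 0.60, limma adjusted p = 0.623). DGAT2 was read by 1 probe with a usable ratio on 49 of 56 spots. With liver in Cy3 it ran from 1.15 to 2.82 over 7 healthy cows (median 2.59) and from 1.23 to 2.95 over 5 ketotic cows (median 2.34). With liver in Cy5 it ran from 0.68 to 3.34 over 7 healthy cows (median 2.80) and from 2.62 to 3.10 over 6 ketotic cows (median 2.75). Healthy cow 7 was the lowest cow in either dye. When a single array was enough for a cow, the DGAT2 difference was 0.01 (95% interval -0.69 to 0.71, limma adjusted p = 0.990).

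The lipases act in turn on triacylglycerol, diacylglycerol and monoacylglycerol. PNPLA2, adipose triglyceride lipase, opens the sequence. It ran from 1.02 to 2.79 with a median of 1.94 in healthy cows and from 2.06 to 2.44 with a median of 2.24 in ketotic cows. All 7 ketotic cows lay above the healthy mean but inside the healthy range, since healthy cows 5 and 6 were higher still. As for GPAM, the ketotic cows lay close together (SD 0.123 against 0.589, n = 7 each). The healthy SD was 0.426 when cow 7 was left out. The PNPLA2 difference was 0.19 (SE 0.223, 95% interval -0.28 to 0.67, limma adjusted p = 0.619). With healthy cow 7 left out it was 0.03 (limma adjusted p = 0.932), and 4 of 7 ketotic cows then lay above the healthy mean. Neither spread was tested between the groups.

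LIPE encodes hormone-sensitive lipase, which prefers diacylglycerol and is best known from adipocytes. Its probe 2223 had a usable ratio on 43 of 56 spots and values in 5 cows of each group. The healthy cows measured -0.47, -0.43, -0.02, 0.17 and 0.27, and the ketotic cows -1.04, 0.45, 0.61, 0.83 and 1.33. Ketotic cow 4 was the lowest of all 10 and the other 4 ketotic cows lay above every healthy cow. The LIPE difference was 0.53 (SE 0.381, 95% interval -0.30 to 1.36, limma adjusted p = 0.398).

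The LIPE value depended on the dye and on how missing arrays were treated. It was 0.18 from the arrays with liver in Cy3 and 1.65 from those with liver in Cy5, where a second LIPE probe also had enough values (limma adjusted p = 0.766 and 0.0632). When 1 array was enough for a cow, that second probe entered too, and the difference was 0.85 (SE 0.253, 95% interval 0.31 to 1.40, limma adjusted p = 0.0489). That passes the threshold, in a setting where 0.871% of all genes passed in that direction. Neither LIPE probe passed alone in that setting: the difference was 0.68 for probe 2223 and 0.93 for the second probe (limma adjusted p = 0.218 and 0.198). LIPE is itself among the adipocyte markers. Of the other markers of that list, ADIPOQ had a ratio on 43 of 56 spots and FABP4 on 24 of 56, and neither had enough cows for a test. Of the 3 adipocyte markers that could be measured, LEP, LIPE and CIDEA, 0 passed. Their mean over those with a value in a cow ran from -0.28 to 1.39 in healthy cows and from -0.35 to 2.41 in ketotic cows. The markers averaged differed between cows, and the 2.41 was LEP alone, so these ranges do not compare the same genes. The part of the other adipocyte markers in the LIPE value was not tested.

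MGLL, monoacylglycerol lipase, releases the last fatty acid. It came closest to the threshold of the 7 genes. Healthy cows ran from 1.03 to 1.74 with a median of 1.23 and ketotic cows from 1.15 to 2.0 with a median of 1.75. Of the ketotic cows, 6 of 7 lay above the healthy mean and 4 above every healthy cow. Group means were 1.30 ± 0.260 and 1.68 ± 0.295 (SD, n = 7 each). The difference was 0.38 (SE 0.164), a 1.30-fold ratio with a 95% interval of 1.02 to 1.66. The unadjusted limma p was 0.0338 and the adjusted one 0.138. The value was 0.41 with liver in Cy3, 0.35 with liver in Cy5, and 0.38 without healthy cow 7 (limma adjusted p = 0.122). It was 0.08 when all arrays were scaled to one spread and was 0.24 with the share of unusable spots as a covariate.

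MGLL and PNPLA2 rose in rank with the share of unusable spots, a relation examined, like that of PLIN2, after the values had been seen. Across 14 cows rho was 0.705 for MGLL (permutation p = 0.00635, adjusted over 7 genes 0.0222) and 0.754 for PNPLA2 (permutation p = 0.00234, adjusted 0.0164). Pearson's r was 0.613 for MGLL and 0.535 for PNPLA2 (permutation p = 0.0158 and 0.0590, adjusted 0.111 and 0.138). Without the 2 cows with the largest shares, r was 0.704 and 0.746. Without healthy cow 7, rho was 0.714 and 0.692 (permutation p after adjustment 0.0383 for both). Pearson's r was then 0.601 and 0.457 (permutation p after adjustment 0.168 and 0.206). Within the healthy cows r was 0.681 for MGLL and 0.810 for PNPLA2 (exact permutation p = 0.0857 and 0.0284, both 0.133 after adjustment over 6 genes). Within the ketotic cows it was 0.294 and 0.440 (exact permutation p = 0.517 and 0.325, adjusted 0.604 and 0.487). For PLIN3, GPAM, DGAT1 and LIPE, neither coefficient over all cows passed after adjustment.

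**Figure D3:**
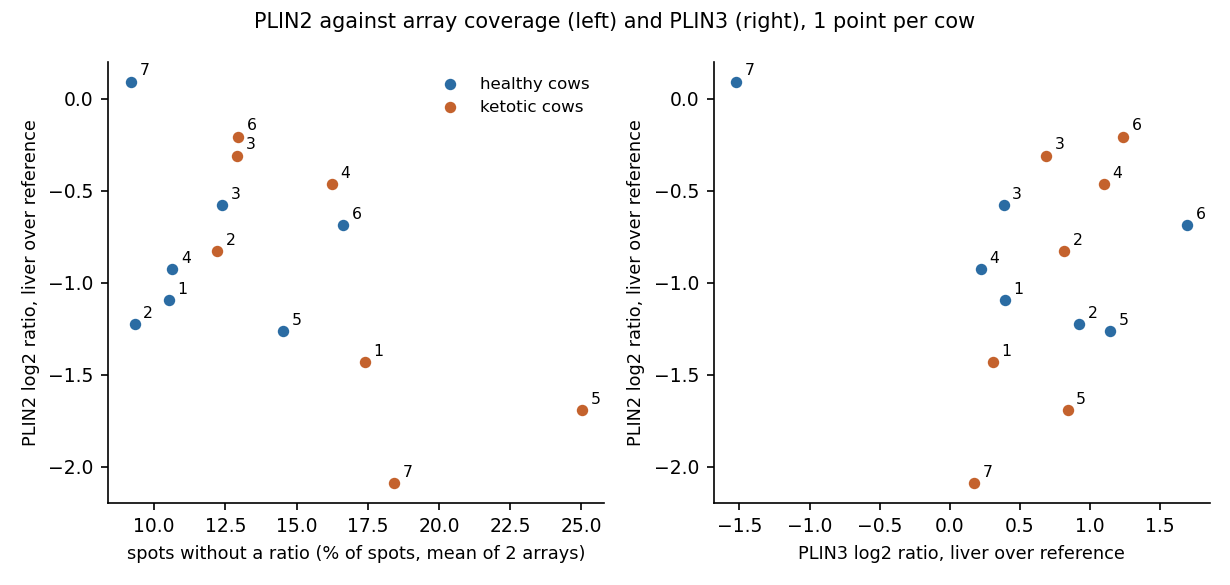
PLIN2 level of each cow (vertical axes, log2 ratio of liver over the reference pool) against the share of spots without a ratio (left, percent) and against the PLIN3 level (right, log2 ratio), with healthy cows in blue, ketotic cows in orange, and cow numbers beside the points. Ketotic cows 5 and 7 lie at the lower right of the left panel, at 25.0% and 18.4%, and healthy cow 7 lies alone at the upper left of both.

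The wider set of triacylglycerol and lipid droplet genes held 50 genes, of which 29 had a probe and 25 were tested. VCP alone passed, as lower in ketosis, and 24 did not. Over all genes 12.4% passed as lower, and 1 of 25 lies below that share. The median difference of the 25 was 0.12, and that of the 18 outside the 7 genes above was 0.05. Differences were positive for 16 of the 25. An unadjusted limma p under 0.05 was found for 4 of them, against 28.4% of all genes.

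VCP encodes an ATPase that pulls proteins out of membranes and droplets for degradation, with many roles outside lipid storage. It ran from -0.44 to 0.42 with a median of -0.16 in 6 healthy cows and from -1.32 to -0.37 with a median of -0.89 in 7 ketotic cows. The ketotic cows other than cow 1 lay below every healthy cow measured. Healthy cow 7 had no VCP value. The difference was -0.79 (SE 0.192, 95% interval -1.20 to -0.38, limma adjusted p = 0.0175), a level 1.73-fold lower in ketosis. It was -0.72 with the share of unusable spots as a covariate (limma adjusted p = 0.108) and -0.77 from liver in Cy5 alone (limma adjusted p = 0.129), and lost the call in both.

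**Figure D4:**
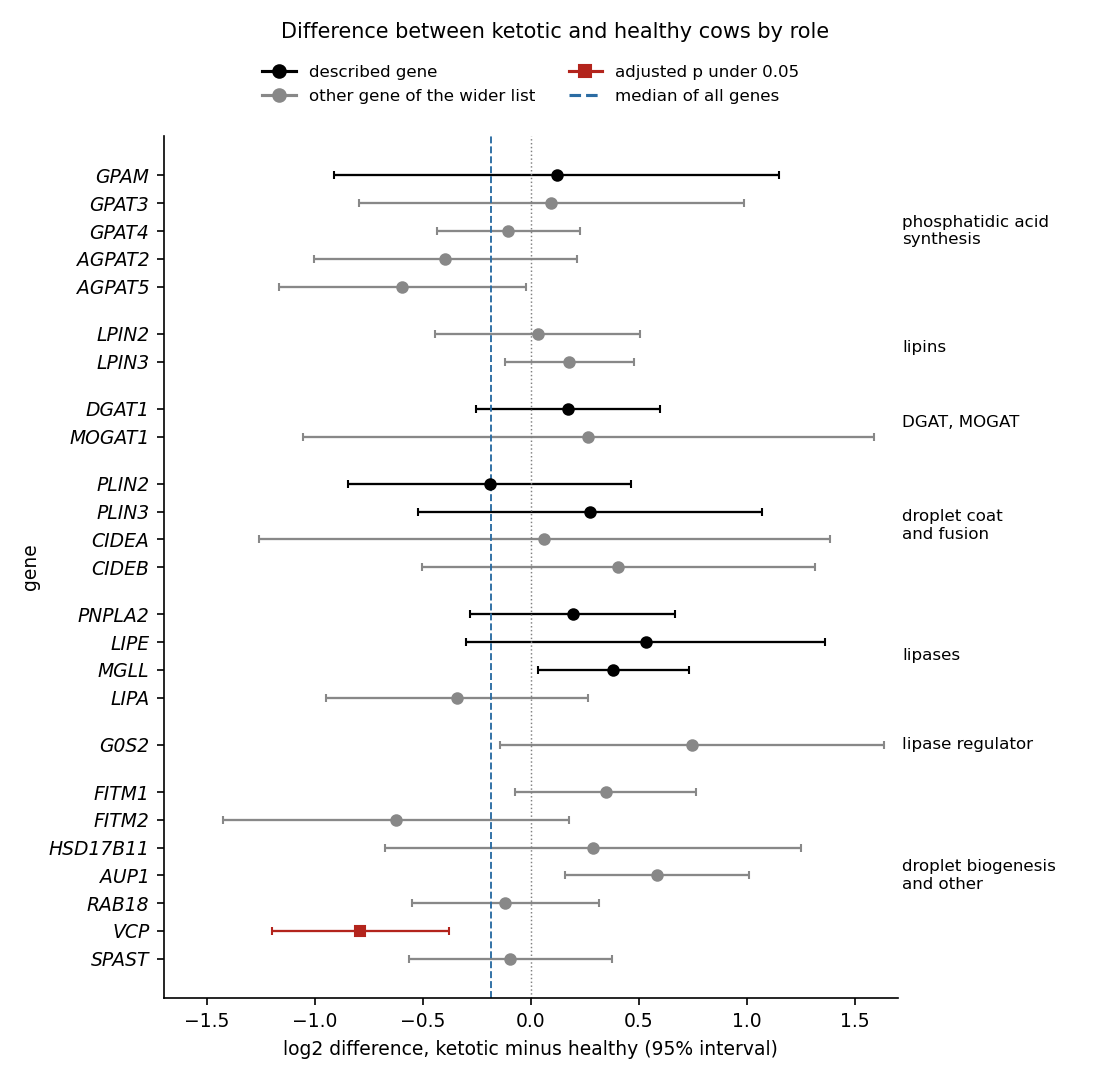
Difference between the groups for the 25 tested genes (horizontal axis, log2 ketotic minus healthy with 95% intervals; vertical axis, gene, grouped by role), with the 7 genes of the set in black, other genes in grey, a gene that passed as a red square, and the median of all genes as a dashed line. VCP is the single square, at -0.79, and the interval of MGLL runs from 0.03 to 0.73.

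AUP1, a droplet protein that recruits a ubiquitin-conjugating enzyme, was next in that role and is named with its values known. It ran from -0.46 to 0.63 in healthy cows and from 0.40 to 1.43 in ketotic cows, and all 7 ketotic cows lay above the healthy mean. The difference was 0.58 (SE 0.201), with a limma p of 0.0106 before and 0.0668 after adjustment. It passed without ketotic cow 1 (limma adjusted p = 0.0468), with centring on probes measured on every array (0.72, limma adjusted p = 0.0378) and with single arrays and the cow as a random block (limma adjusted p = 0.0238), and was 0.18 on the values as deposited (limma adjusted p = 0.576). In the other roles no gene passed. AGPAT5 and AGPAT2, which add the second fatty acid, had differences of -0.60 and -0.40 (limma adjusted p = 0.160 and 0.394). The lipins LPIN3 and LPIN2, which remove the phosphate, had 0.18 and 0.03 (limma adjusted p = 0.436 and 0.948). MOGAT1, a monoacylglycerol acyltransferase, had 0.27 (limma adjusted p = 0.827). CIDEB, a droplet protein of hepatocytes that takes part in lipoprotein loading, had 0.41 (limma adjusted p = 0.585). G0S2, the protein inhibitor of PNPLA2, had a difference of 0.74 (SE 0.416, limma adjusted p = 0.260), over 7 healthy and 6 ketotic cows. Several of these values rested in part on healthy cow 7, which was the lowest healthy cow for MOGAT1, CIDEB and G0S2. With that cow left out, the difference was -0.14 for MOGAT1, 0.07 for CIDEB and 0.40 for G0S2. It was then -0.38 for AGPAT5, -0.59 for AGPAT2, 0.17 for LPIN3, 0.18 for LPIN2 and 0.46 for AUP1, and none of these 8 genes passed (limma adjusted p = 0.0756 to 0.902).

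Leaving out healthy cow 7 added 1 call. LIPA, the lysosomal acid lipase, was chosen for description after its values were seen. It ran from 1.42 to 1.90 in the other 6 healthy cows, was -0.04 in healthy cow 7, and ran from 0.54 to 1.77 in the ketotic cows. With all cows its difference was -0.34 (limma adjusted p = 0.467). Without healthy cow 7 it was -0.59 (95% interval -0.99 to -0.19, limma adjusted p = 0.0394), and 5 of 7 ketotic cows lay below every remaining healthy cow. VCP and LIPA were then lower, with 18.4% of all genes lower in that comparison. Markers of liver cell types were examined too, with all cows. Of 8 macrophage markers tested 3 were lower in ketosis, where 12.4% of all genes were lower. Their mean level per cow ran from 0.88 to 3.22 in healthy and from 0.81 to 2.17 in ketotic cows. The 0.88 was healthy cow 7, and the other healthy cows lay at 2.10 or above. The 8 stellate cell and fibroblast markers had a median difference of -0.91, and none of them passed. Their mean levels ran from -1.80 to 0.41 in healthy cows, with healthy cow 7 the highest, and from -2.79 to -1.32 in ketotic cows. Of 12 hepatocyte markers 2 were higher, where 64 of all 6958 genes were higher. The part of these marker differences in the VCP and LIPA values was not tested.

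**Figure D5:**
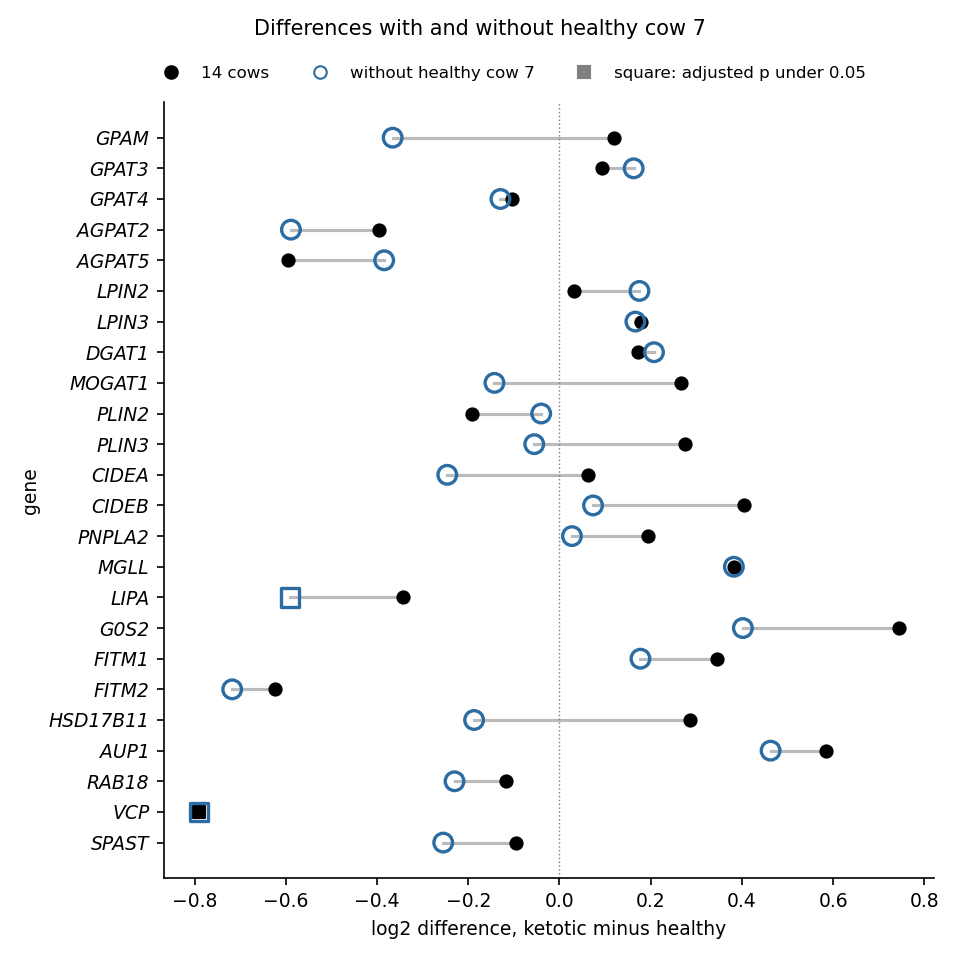
Difference between the groups with all 14 cows (filled) and without healthy cow 7 (open) for the genes tested both ways (horizontal axis, log2 ketotic minus healthy; vertical axis, gene), with squares for an adjusted p under 0.05. GPAM moves from 0.12 to -0.37, MGLL stays at 0.38, and LIPA moves to -0.59.

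Whether PLIN2 differed from the other genes in its response was tested on the difference between PLIN2 and each other gene within a cow. The shift of this difference, ketotic minus healthy, was -0.57 against MGLL, -0.47 against PLIN3, -0.39 against PNPLA2, -0.36 against DGAT1 and -0.31 against GPAM (7 against 7 cows), and -0.67 against LIPE (5 against 5). No shift passed in a two-sided exact permutation test adjusted over the 6 pairs: the unadjusted p was 0.146 for MGLL and 0.318 to 0.798 for the others, and the adjusted p 0.627 to 0.798. With liver in Cy5 alone the shift against LIPE was -1.98 and passed (exact permutation test, adjusted p = 0.042). For MGLL, 5 of 7 ketotic cows lay below the healthy mean of the difference. That count was 6 of 7 for PLIN3, 5 of 7 for PNPLA2, 4 of 7 for DGAT1, 3 of 7 for GPAM and 4 of 5 for LIPE. When healthy cow 7 was left out the shift was 0.02 against PLIN3 and 0.33 against GPAM, of the opposite sign, and it was -0.07 against PNPLA2, -0.25 against DGAT1, -0.42 against MGLL and -0.45 against LIPE (exact permutation p = 0.267 to 0.957, adjusted 0.881 to 0.957 over the 6 pairs).

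No correlation of PLIN2 with the other genes of the set passed across cows. Over 14 cows (10 for LIPE) Pearson's r ran from -0.476 for LIPE to 0.167 for DGAT1 and Spearman's rho from -0.420 for PNPLA2 to 0.178 for DGAT1. The smallest permutation p was 0.113 for r and 0.136 for rho, both with PNPLA2, and 0.348 and 0.798 after adjustment over the 6 genes. PLIN3 and PLIN2 had r = -0.169 (permutation p = 0.570, adjusted 0.667) and rho = 0.121 (permutation p = 0.682, adjusted 0.798) over all cows. Within the healthy cows r was -0.727 and within the ketotic cows 0.754 (exact permutation p = 0.0764 and 0.0589, adjusted over 5 genes 0.150 and 0.295). The healthy value rested on cow 7, without which it was -0.019, and r over the 13 remaining cows was 0.423 (permutation p = 0.148). Without ketotic cow 7 and healthy cow 7, the 2 farthest in PLIN2, r with PLIN3 was 0.260.

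The genes whose pattern over the 14 cows was most like that of PLIN2 changed with healthy cow 7. Of 5239 genes with a value in every cow, DCAF15, a substrate receptor of a ubiquitin ligase, ranked first (r = 0.904, rho = 0.815). EIF2S1, a subunit of a translation initiation factor, followed with r = 0.870. LDHA, a lactate dehydrogenase subunit, had r = 0.860. CDK17, a cyclin-dependent kinase, had r = 0.859, and FOSL2, a transcription factor subunit, had r = 0.851. These are the highest of many correlations over the same cows and arrays and carry no test. Without healthy cow 7, r was 0.900 for LDHA and 0.886 for DCAF15, and these were the 2 of the 5 that stayed among the first 5. The 3 that entered were SGPL1, a sphingosine 1-phosphate lyase (r = 0.858, against 0.406 over all cows), UBE2G2, a ubiquitin-conjugating enzyme (0.847, against 0.189), and ACSL1, which activates fatty acids (0.841, against -0.120). When any other single cow was left out, 3 to 5 of the 5 stayed. The group differences of the 5 ran from -0.60 for EIF2S1 to -0.16 for DCAF15, and 0 of the 5 passed (limma adjusted p = 0.342 to 0.741).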

How the data were processed

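The authors deposited 1 log2 ratio of the channels for each spot. The authors' scanning, background correction and normalisation, and the array's build, are not given in the sources used here. Empty cells and the ceiling of 16.61 were read as no value. Ratios with liver in Cy3, by the sample titles, were turned in sign. On 1 ketotic array both dye fields read Cy5, and its title, which has liver in Cy5, was followed. Adjacent spots were averaged to 13824 probes; the design text names 13257 elements, a gap that was not resolved, and each array was centred on its median over probes. A cow needed both arrays and a probe at least 5 cows per group, which left 10420 probes. Probes with a single symbol in the supplied annotation were named through gene IDs, and a gene was the mean of its centred probes. Where a cow lacks 1 probe of a gene, the other stands in.

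Groups were compared with limma 3.58.1 (lmFit and eBayes, R 4.3.3), two-sided, adjusted over all genes, with errors and 95% intervals from the fit. The calls and signs of the fit were tried on simulated data with independent noise for each gene and no outlying cow. That trial did not cover the errors or intervals. Permutation tests used scipy 1.17.1 and numpy 2.4.6, exact up to 8 cows in correlations and for all splits of the cows between groups, otherwise with 100000 resamples. Figures were drawn with matplotlib 3.10.9. The genes named were every tested gene of the set, passing genes of the wider list or else the 1 or 2 with the smallest p of each role, and the 5 genes most correlated with PLIN2. The genes and lists were chosen with earlier results of these data known. AUP1 and LIPA were added after their values were seen. The number of arrays limits the precision. Alternatives covered scaling, dyes, filters, model, weights, threshold and each cow left out. Replicate numbers only name cows. The labels give no hybridisation batch.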

Additional observations from a re-analysis of the deposited data

Results flagged for a closer look

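Of 56 groups of values searched, 8 held a cow far from its group, where chance gives about 1 in 20 groups, or 2.8, and 6 of the 8 were healthy cow 7. The values are log2 ratios of liver over the reference pool. GPAM in healthy cow 7 was -1.73, with the next healthy cow at 0.77. LIPA in healthy cow 7 was -0.038, with the next at 1.42. FITM1, a gene of droplet formation, was -0.47 in healthy cow 7, with the next at 0.48. HSD17B11, a droplet-bound dehydrogenase, was 2.33 in healthy cow 7, with the next at 5.13, and in ketotic cow 1 it was 5.83, with the next ketotic cow at 5.50. AGPAT5 was 1.06 in healthy cow 7, with the next at -0.09. The median correlation with the cow's own group was 0.467 for healthy cow 7, with the next healthy cow at 0.915, and 0.893 for ketotic cow 5, with the next ketotic cow at 0.914.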

How the results depend on the processing

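The differences of PLIN2, GPAM, DGAT1, PNPLA2, MGLL and PLIN3 passed the threshold under none of the alternatives run, and that of LIPE only in the setting in which 1 array was enough for a cow, which gave the only passing gene of the set (1). Leaving out a cow with a LIPE value left too few cows to test LIPE. Leaving out a cow without one kept the LIPE difference at 0.53. VCP kept its sign in all settings run and lost its call in 2. Signs of the differences that did not pass were less stable. PLIN2 was 0.040 with one spread for all arrays, 0.066 with array weights and 0.24 with the share of unusable spots as covariate, and -0.32 to -0.01 leaving out each cow. GPAM was -0.28 as deposited, -0.059 with one spread, -0.014 with quantile normalisation, -0.26 with array weights and -0.42 with the covariate, and -0.37 to 0.37 leaving out each cow. PNPLA2 was -0.21 as deposited, -0.20 with one spread, -0.090 with quantile normalisation and -0.063 with the covariate. DGAT1 was -0.23 as deposited and -0.013 with the covariate. MGLL was -0.018 and PLIN3 -0.12 as deposited, PLIN3 was -0.055 to 0.48 leaving out each cow, and LIPE was -0.84 with ceiling ratios kept. As deposited, the median of all genes was -0.58 in place of -0.18, and centring on probes measured on every array gave -0.05.

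The shift of PLIN2 against GPAM was 0.10 with one spread and 0.00036 with quantile normalisation, against DGAT1 0.0084 with one spread, against PNPLA2 0.24 and 0.077, and against LIPE 0.66 with ceiling ratios kept. Leaving out each cow gave -0.54 to 0.33 against GPAM and -0.66 to 0.016 against PLIN3. The correlation of PLIN2 with PLIN3 was 0.12 as Spearman's rho, 0.75 within ketotic cows, 0.26 without the 2 farthest cows and 0.42 without healthy cow 7. With GPAM it was 0.035 and 0.076 in the last pair of settings, with DGAT1 -0.024 without the farthest cows, and with MGLL 0.016 within ketotic cows and 0.10 without the farthest cows.

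Genes of the wider list past the threshold numbered 3 as deposited and 2 with centring on common probes, with 1 array enough, with single arrays and the cow as random block, and at a threshold of 0.1, and 0 with liver in Cy5 alone, with values required in all cows (where VCP was not tested), and with the covariate. Leaving out each cow gave 1 to 2. Of all genes, 929 passed, against 2477 as deposited, 616 with common probes, 550 with one spread, 562 with quantile normalisation, 12 with liver in Cy5 alone, 1409 with array weights, 168 with the covariate, 1395 at 0.1, and 652 to 1368 leaving out each cow. For these changes the cause was not tested. No paired analysis was possible because the labels give no replicate number shared between the groups. Scanner intensities were not used here, so signal over background could not limit the spots read.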
